A study of Mus musculus with 6 samples.

Results

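The genes described here encode enzymes of heme synthesis: Alas1, Alad, Uros, Urod, Cpox, Ppox and Fech. They were chosen by symbol, as all probe sets of the array that its annotation pairs with exactly 1 of these genes. This gave 13 probe sets of 22690 on the array and 7 genes of 12393 with a probe set of their own. All 7 genes passed the filter on low signals, which left 9692 genes for the test, and 12 of the 13 probe sets did.

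Whole-liver RNA of wild-type male C57Bl/6 mice was hybridised to Affymetrix Mouse Genome 430A 2.0 arrays 6 h after a jugular vein injection of vehicle, purified FGF15 or recombinant FGF19, and the mice had no food in between. There were 2 arrays per group and 6 in all, and the labels name no difference between the groups other than the injected agent. Whether each array stands for its own animal is not said in the labels, so the p-values reflect array-to-array spread, which may be technical. Doses, the make-up of the vehicle and the age of the mice are not stated in the labels.

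Heme is an iron-holding porphyrin, and in liver most of it goes into cytochrome P450 enzymes. Synthesis starts in the mitochondrion, where Alas1 joins glycine and succinyl-CoA to 5-aminolevulinate, the rate-limiting step outside red cells. Cytosolic enzymes, Alad, Uros and Urod among them, then build and trim the porphyrin ring, and Cpox, Ppox and Fech finish it in the mitochondrion, where Fech inserts iron. Transcription of Alas1 in hepatocytes is known to rise in fasting through the coactivator PGC-1α (Ppargc1a) and to be held down by heme itself. FGF15 is secreted by the ileum in response to bile acids after feeding, and FGF19 is its human orthologue.

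The 3 genes that passed the test lie on different chromosomes, and their promoters are shown so that they can be compared. Each sequence runs 5′ to 3′ from 250 bases before to 50 bases after an annotated start of transcription (RefSeq, GRCm38.p6), with motif matches in capitals. They are Alas1 at chr9:106247681-106247980 (minus strand), Urod at chr4:116994364-116994663 (minus strand) and Cpox at chr16:58669958-58670257 (plus strand).
Alas1: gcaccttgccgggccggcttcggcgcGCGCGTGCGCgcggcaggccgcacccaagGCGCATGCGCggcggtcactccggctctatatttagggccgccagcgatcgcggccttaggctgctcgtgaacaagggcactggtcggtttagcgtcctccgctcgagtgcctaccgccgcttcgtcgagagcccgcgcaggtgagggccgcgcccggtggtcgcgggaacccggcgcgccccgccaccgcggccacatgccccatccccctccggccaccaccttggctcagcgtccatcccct
Urod: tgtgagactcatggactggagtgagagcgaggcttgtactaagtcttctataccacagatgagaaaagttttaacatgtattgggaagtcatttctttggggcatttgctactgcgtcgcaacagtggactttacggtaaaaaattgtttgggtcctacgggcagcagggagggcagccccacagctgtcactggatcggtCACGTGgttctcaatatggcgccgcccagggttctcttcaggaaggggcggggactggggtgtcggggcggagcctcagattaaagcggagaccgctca
Cpox: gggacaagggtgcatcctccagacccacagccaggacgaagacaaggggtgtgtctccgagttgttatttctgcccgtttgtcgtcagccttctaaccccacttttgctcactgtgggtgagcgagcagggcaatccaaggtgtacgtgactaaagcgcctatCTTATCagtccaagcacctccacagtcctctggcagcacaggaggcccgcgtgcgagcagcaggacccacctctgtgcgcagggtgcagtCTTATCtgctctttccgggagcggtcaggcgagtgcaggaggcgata

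Searched on both strands were the NRF1 motif (GCGCA, then any base, then GCGC), the GATA motif GATAAG, the E-box CACGTG and the cyclic AMP response element TGACGTCA, chosen after the windows had been read. Both capital runs of the Alas1 window are NRF1 matches, which begin 224 and 195 bases before this start, GCGCGTGCGC being the motif read on the other strand. RefSeq lists a further Alas1 start upstream, and from that start the same matches begin at bases 1 and 30 after it. Urod held an E-box 49 bases before its start, and Cpox held GATAAG on the other strand, 87 bases before and 4 bases after its start. None of these motifs is shared by these 3 windows.

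Windows on chr18 were left out of the search. The windows kept included 9 for 6 of the 7 genes and none for Fech. NRF1 matches lay in windows of 2 of the 6 genes (Alas1 and Uros), beside 4.6% of the 32851 windows kept. GATA matches lay in windows of 2 (Uros and Cpox) against 7.44% of all windows, and E-boxes in those of 3 (Alad, Uros and Urod) against 7.15%. TGACGTCA, held by 1.79% of all windows, is not among the letters of these 9. These counts are of genes, some with several windows, while the percentages are of single windows. The motifs were also chosen after the windows had been read, so no excess is read from the counts. A match is a description of the letters and not a site of binding.

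Among the enzyme genes, Alas1 and Urod fell with either hormone and Cpox rose with FGF15 and was lower with FGF19 than with FGF15. Against vehicle, 3 of 7 enzyme genes passed the test with FGF15 (42.9%, with 12.5% of all genes tested), of which 1 rose (5.87% of all genes did) and 2 fell (6.64% of all did). With FGF19, 2 of 7 passed (28.6%, with 13.5% of all), both lower, where 6.27% of all genes rose and 7.26% fell. Between the hormones, 1 of 7 passed (14.3%, with 4.29% of all), lower with FGF19, where 2.40% of all genes were higher and 1.89% lower. The median log2 change of the 7 genes was 0.04 with FGF15 and -0.06 with FGF19, beside -0.05 and -0.07 over all genes. The called genes lay on either side of 0, and the description that follows goes by step of the pathway.

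Signals below are the deposited linear values, changes are differences of log2(signal + 32), each with limma's standard error, and adjusted p-values are limma's, taken over all 9692 genes. Levels are compared within a probe set alone, since probe sets differ in brightness at equal RNA.

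**Figure D1:**
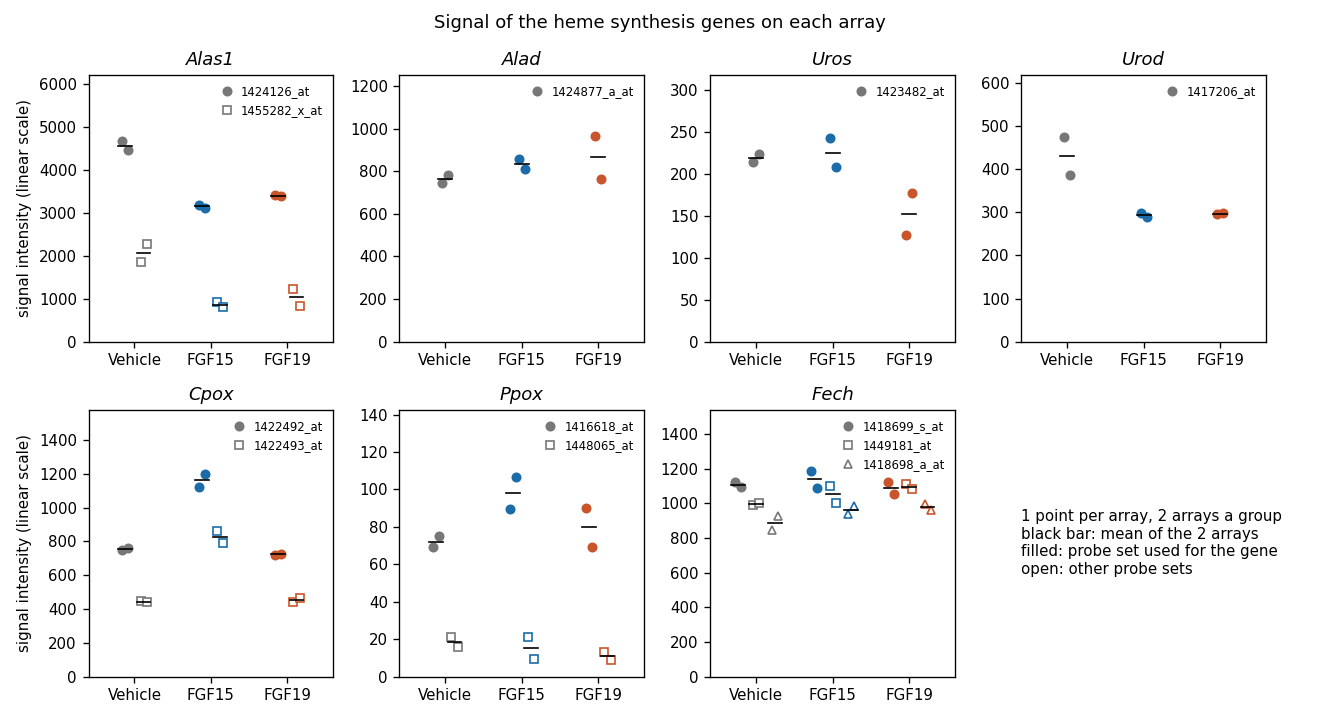
Deposited signal of each enzyme gene (linear axis from 0, 1 panel per gene) on the 2 vehicle, 2 FGF15 and 2 FGF19 arrays; points are arrays (filled for the probe set used for the gene, open for its other probe sets) and bars are group means. Both hormone groups lie under vehicle for Alas1 and Urod, and the FGF15 arrays of Cpox (1124 and 1196) lie above the other 4 arrays.

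Alas1, the rate-limiting enzyme, read 4666 and 4474 on the vehicle arrays. It read 3191 and 3119 with FGF15, and 3418 and 3386 with FGF19. The hormone arrays all lay under both vehicle arrays, and the arrays within each group lay close together. The mean signal was 4569.95 ± 136 (SD, n = 2) with vehicle, 3155 ± 51.2 with FGF15 and 3402 ± 22.6 with FGF19. Alas1 thus fell 1.44-fold with FGF15 (log2 -0.53 ± 0.06, adjusted p = 0.000471) and 1.34-fold with FGF19 (log2 -0.42 ± 0.06, adjusted p = 0.00174). The FGF19 group read higher than FGF15 by 0.11 on the log2 scale, with a 95% interval from -0.03 to 0.25 and an adjusted p of 0.446 by limma, so a difference between the hormones was not resolved. In whole-liver RNA, fewer cells of a type and less RNA per cell cannot be told apart, here and for all genes that follow.

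A further Alas1 probe set, of a type that can also bind related transcripts, read 1860 and 2272 with vehicle, 928.6 and 803.7 with FGF15, and 1239 and 843.8 with FGF19. Its groups were again apart from vehicle, but its arrays spread more within a group. It fell more steeply, 2.33-fold with FGF15 (log2 -1.22 ± 0.16, adjusted p = 0.00117 in limma) and 1.98-fold with FGF19 (log2 -0.98 ± 0.16, adjusted p = 0.00381). The direction of Alas1 thus held on both probe sets while its size did not: averaging them gave -0.88 and -0.70. Which of them is nearer to the change of the transcript was not tested.

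Alad condenses 5-aminolevulinate to porphobilinogen. It read 743.4 and 781.7 with vehicle, 855.3 and 810.8 with FGF15, and 967.4 and 764.6 with FGF19. The FGF15 arrays lay above vehicle, while the FGF19 arrays lay on either side of the second vehicle array. The changes were 0.12 ± 0.10 (95% interval -0.10 to 0.34, adjusted p = 0.481 in limma) and 0.17 ± 0.10 (-0.05 to 0.39, adjusted p = 0.304). Without FGF19 replicate 2 the FGF19 value was 0.33. That value rests on FGF19 replicate 1 alone, the array that stood apart in its control probe sets (described below).

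Uros closes the ring to uroporphyrinogen III. Its signal was 213.7 and 224.1 with vehicle, 242.9 and 208.1 with FGF15, and 127.1 and 177.9 with FGF19. Both FGF19 arrays were the lowest of the 6, and they also stood far apart from each other. The FGF15 difference was 0.03 ± 0.13 (95% interval -0.27 to 0.33, adjusted p = 0.905 in limma). With FGF19 it was -0.46 ± 0.13, a 1.37-fold lower value that just missed the threshold (adjusted p = 0.0506). Against FGF15 the FGF19 group differed by -0.49 ± 0.13 (adjusted p = 0.0764). These values turn on single arrays. Without FGF19 replicate 2 the difference from vehicle was -0.66 and that from FGF15 -0.69. Both rest on FGF19 replicate 1 alone, the array that stood apart in its control probe sets. Without FGF19 replicate 1 the difference from vehicle was -0.26.

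Urod, which decarboxylates uroporphyrinogen III to coproporphyrinogen III, read 473.8 and 387.1 with vehicle. It read 298.1 and 289.9 with FGF15, and 294.9 and 298.9 with FGF19. The 4 hormone arrays lay within a narrow range under both vehicle arrays, and the vehicle arrays differed from each other by far more. Urod fell 1.41-fold with FGF15 (log2 -0.50 ± 0.10, adjusted p = 0.00846 in limma) and 1.40-fold with FGF19 (log2 -0.49 ± 0.10, adjusted p = 0.00903). The hormones differed by 0.01 on the log2 scale, with a 95% interval from -0.20 to 0.23 (adjusted p = 0.97). Vehicle replicate 1 carried part of the change: without it the values were -0.36 (adjusted p = 0.0808) and -0.35 (0.0838), and without FGF19 replicate 1 the FGF19 value was -0.48 (0.0570).

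Cpox, the mitochondrial step from coproporphyrinogen III to protoporphyrinogen IX, separated the hormones. It read 748.4 and 761.0 with vehicle, 1124 and 1196 with FGF15, and 721.3 and 726.1 with FGF19. The FGF15 arrays were the highest by a wide margin, and the FGF19 arrays lay just under vehicle. Cpox rose 1.51-fold with FGF15 (log2 0.60 ± 0.07, adjusted p = 0.000285 in limma). With FGF19 the difference was -0.06 ± 0.07 (95% interval -0.20 to 0.09, adjusted p = 0.605). Tested directly, the FGF19 group was 1.58-fold lower than the FGF15 group (log2 -0.66 ± 0.07, adjusted p = 0.000348), and over the 19 alternative settings this ranged from -0.74 to -0.61.

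The other Cpox probe set gave the same picture: 445.5 and 439.6 with vehicle, 860.5 and 788.5 with FGF15, and 440.7 and 464.8 with FGF19. There the rise with FGF15 was 1.80-fold (log2 0.85 ± 0.08, adjusted p = 0.000123 in limma) and the FGF19 value was 0.03 ± 0.08 (adjusted p = 0.838). Set among all genes by size of change, 4.92% moved further than Cpox with FGF15, and 6.95% and 8.22% moved further than Alas1 and Urod. Between the hormones, 1.89% of all genes differed by more than Cpox.

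Ppox, which oxidises protoporphyrinogen IX to protoporphyrin IX, read 69.1 and 74.9 with vehicle, 89.6 and 106.6 with FGF15, and 90.2 and 69.1 with FGF19. The FGF15 arrays lay above vehicle, and the FGF19 arrays did not separate from it. The changes were 0.32 ± 0.14 (95% interval 0.00 to 0.64, adjusted p = 0.19 in limma) and 0.10 ± 0.14 (adjusted p = 0.706). A dimmer Ppox probe set read from 8.72 to 21.2 over the 6 arrays, near the level of the filter, and its values against vehicle were -0.10 and -0.23.

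Fech, the ferrochelatase that inserts iron, read 1124 and 1092 with vehicle, 1187 and 1089 with FGF15, and 1123 and 1054 with FGF19. All groups overlapped, and the changes were 0.04 ± 0.07 (95% interval -0.12 to 0.19, adjusted p = 0.795 in limma) and -0.03 ± 0.07 (-0.18 to 0.13, adjusted p = 0.846). With Alas1 and Cpox, this gene had the narrowest intervals of the set. Of the other Fech probe sets, one gave 0.07 and 0.13 and another 0.12 and 0.14, all short of the threshold. The value of 0.13 passed it with arrays centred on their medians (0.28, limma adjusted p = 0.0378). The last Fech probe set, at signals from 0.711 to 3.15, lay below the filter.

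**Figure D2:**
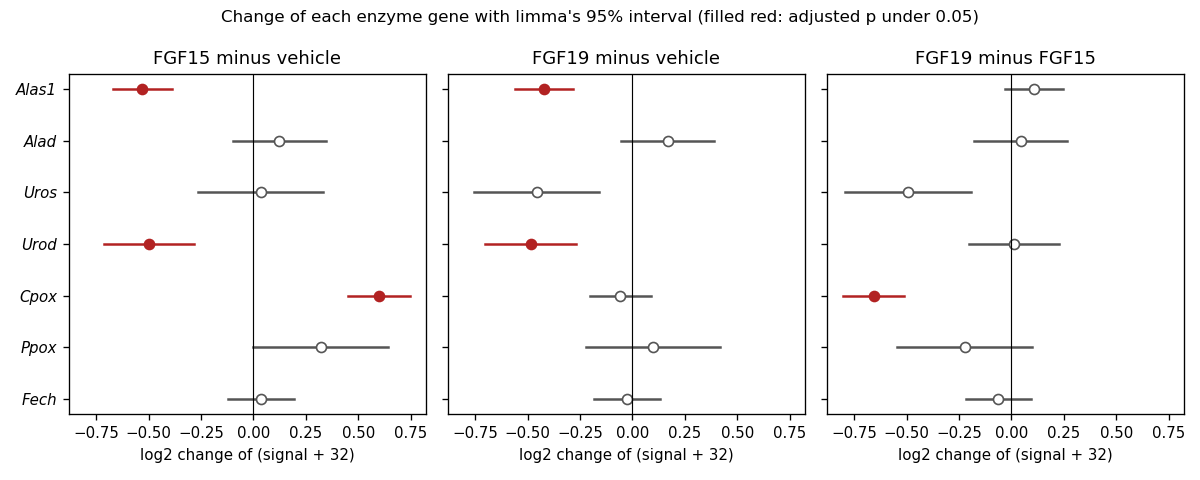
Log2 change of (signal + 32) of the 7 enzyme genes in 3 comparisons, with limma's 95% interval from 2 arrays per group; filled red points have an adjusted p under 0.05. Alas1 (-0.53 and -0.42) and Urod (-0.50 and -0.49) lie left of 0 with both hormones, and Cpox lies at 0.60 with FGF15 and -0.06 with FGF19.

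Counted by arrays alone, 5 of the 7 enzyme genes had no overlap between FGF15 and vehicle (3 higher, 2 lower), where 55.0% of all genes had none (22.2% higher, 32.7% lower). With FGF19 it was 4 of 7, all lower, beside 58.7% of all genes (21.4% higher, 37.2% lower). Between the hormones it was 3 of 7 (1 higher, 2 lower), beside 45.9% (20.1% higher, 25.8% lower). With 2 arrays a group such separation is common, and nothing is read from these counts. The smallest p that an exact permutation test of 2 arrays against 2 can give is 0.333, and for that reason single genes were tested in limma's shared model. The comparisons of FGF15 and FGF19 with vehicle share the vehicle arrays, which bears on every gene that has like values in both.

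Genes whose profile over the 6 arrays was nearest to that of Alas1 were named as a description, with no test. By root mean square distance of log2 values from the vehicle mean, over 9685 other genes, they were Kif22 (0.0404), Rgs5 (0.0429), Hrh3 (0.0439), Tlcd2 (0.0445) and Efnb3 (0.0471). By Pearson correlation over the 6 arrays, among 7441 genes with a range over 0.3, they were Ugt2b34 (0.997), Srxn1 (0.997), Irf7 (0.996), Slc25a15 (0.995) and Saa3 (0.995). Within the pathway, Urod correlated with Alas1 at 0.95 over the same arrays, which fall into 3 groups and share their scaling.

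The further genes that supply heme synthesis had few calls. This list holds the erythroid isoenzyme Alas2, carriers of iron and porphyrins, proteases acting on Alas1 and the enzymes that make succinyl-CoA; 18 of 23 had a measured probe set. With FGF15, 2 of 18 rose (11.1%, close to the 12.5% of all genes), Clpx by 0.39 (limma adjusted p = 0.00728) and Suclg2 by 0.35 (0.0116). CLPX is a mitochondrial unfoldase known to act on ALAS proteins, and Suclg2 is a subunit of succinyl-CoA ligase. With FGF19, 3 rose and 1 fell (22.2%, with 13.5% of all): Alas2 by 0.41 (adjusted p = 0.0175), the iron carrier mitoferrin Slc25a37 by 0.39 (0.0396), the protease Lonp1 by 0.28 (0.0388), and Abcb10 at -0.49 (0.0127). Without vehicle replicate 1, each of them missed the threshold: Clpx (limma adjusted p = 0.0760) and Suclg2 (0.0991) with FGF15, and Alas2 (0.149), Slc25a37 (0.187), Lonp1 (0.230) and Abcb10 (0.0627) with FGF19.

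Alas2 read 638.5 and 733.9 with vehicle, 802.4 and 830.7 with FGF15, and 844.8 and 997.7 with FGF19. All hormone arrays lay above vehicle, but the FGF19 call was lost without vehicle replicate 1 (adjusted p = 0.149) and without FGF19 replicate 2 (0.107). Of 16 erythroid markers, 10 had a probe set and 4 passed the filter. The band 3 anion exchanger Slc4a1 read from 20.7 to 24.3, and the erythroid factors Klf1 from 35.0 to 64.5 and Gata1 from 2.90 to 32.5. Summed over the measured markers, the signal was 757 to 815 with vehicle, 897 to 909 with FGF15 and 920 to 1067 with FGF19, most of it Alas2. By log2 change, Alas2 alone lay above 0 with either hormone. The other 3 lay below it and were not called, and the medians of the 4 were -0.06 and -0.11. The part of red cells in the Alas2 values was not tested.

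**Figure D3:**
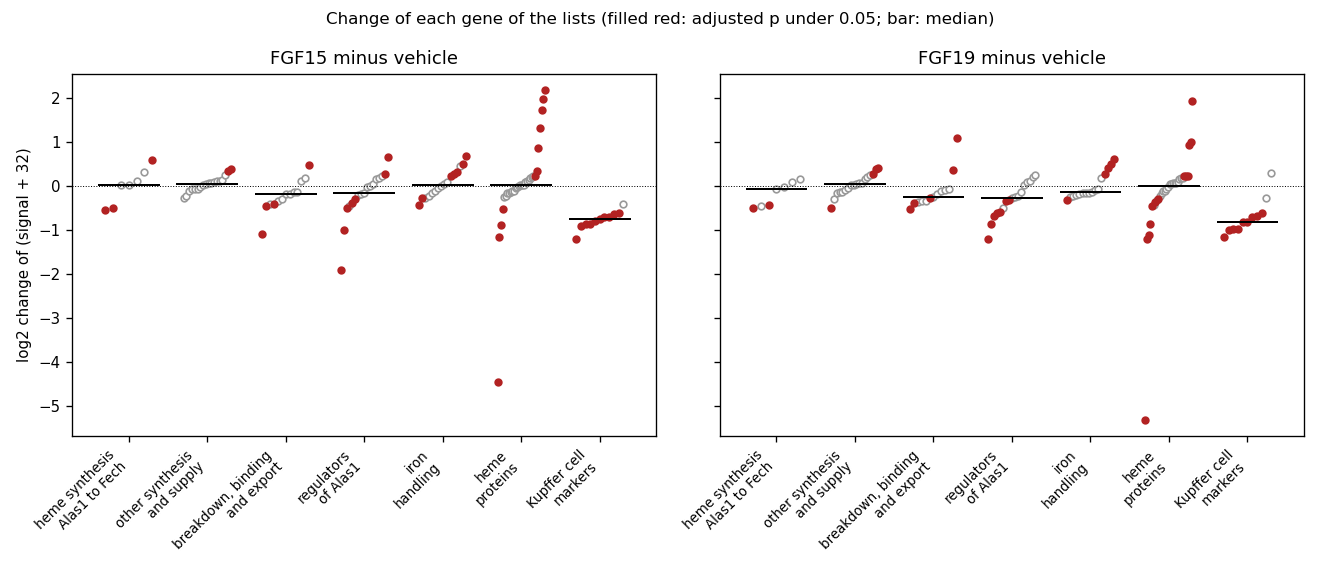
Log2 change of (signal + 32) of the measured genes of each list around heme and of Kupffer cell markers, FGF15 against vehicle and FGF19 against vehicle; each point is a gene, filled where the adjusted p is under 0.05, and the bar is the median of the list. The medians of the enzyme genes (0.04 and -0.06) lie near those of all genes (-0.05 and -0.07), with called genes on either side of 0.

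Known regulators of Alas1 included genes that fell with each hormone. Of 17 measured, 2 rose and 5 fell with FGF15 and 7 fell with FGF19 (41.2% with either, beside 12.5% and 13.5% of all genes), with medians of -0.16 and -0.26. Ppargc1a, the coactivator PGC-1α that drives Alas1 in fasting, read 203.7 and 198.3 with vehicle, 31.0 and 29.7 with FGF15, and 111.3 and 130.5 with FGF19. The 3 groups did not overlap, and the FGF15 arrays were the lowest. It fell 3.74-fold with FGF15 (log2 -1.90, limma adjusted p = 8.32e-06), and with FGF19 by 0.61 on the log2 scale (adjusted p = 0.00867). The hormones differed by 1.29 (adjusted p = 0.000223), while the Alas1 difference between them was 0.11. The FGF19 call of Ppargc1a was lost without vehicle replicate 1 (adjusted p = 0.0681), vehicle replicate 2 (0.0531) or FGF19 replicate 1 (0.0794). Its other probe sets gave -1.33 to -1.11 with FGF15 and -0.82 to -0.45 with FGF19.

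Ppargc1b, the related coactivator, fell with FGF15 (-0.99, limma adjusted p = 0.00322) and with FGF19 (-1.19, 0.001). The bile acid receptor FXR (Nr1h4) fell by 0.29 with FGF15 (adjusted p = 0.0348) and by 0.87 with FGF19 (6.21e-05), a difference between hormones of -0.58 (0.00197). Nr1i3, the xenobiotic receptor CAR that induces Alas1 with P450 genes, rose by 0.66 with FGF15 (adjusted p = 0.000564), and Nr1i2, the receptor PXR, fell with FGF15 by 0.39 (0.0246). Cebpa, a hepatocyte transcription factor, rose by 0.28 with FGF15 (adjusted p = 0.0176) and fell by 0.59 with FGF19 (0.000222), and the hormones differed by -0.87 (4.01e-05). Leaving out 1 array gave 2 to 4 falls with FGF15, the fewest without a vehicle array, and 3 to 7 with FGF19, the fewest without vehicle replicate 2. With arrays centred on their medians, 2 rose and 2 fell with FGF15, and 1 rose and 5 fell with FGF19. The FGF15 call of Cebpa was lost without any 1 vehicle or FGF15 array (limma adjusted p from 0.0515 to 0.140), as was that of Nr1h4 (0.102 to 0.172), and that of Nr1i2 without either vehicle array (0.0991 and 0.123) or FGF15 replicate 1 (0.1001). No test here ties a regulator's change to that of Alas1.

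Genes of heme breakdown, binding and export had calls in both directions. Of 13 measured, 1 rose and 3 fell with FGF15 (30.8%, with 12.5% of all genes; median -0.19), and 2 rose and 3 fell with FGF19 (38.5%, with 13.5% of all; median -0.24). Hmox1, the inducible oxygenase that opens the heme ring, read 460.6 and 434.3 with vehicle, 177.1 and 209.8 with FGF15, and 383.5 and 362.9 with FGF19. Both hormone groups lay under vehicle, with the FGF15 arrays far lower. It fell 2.13-fold with FGF15 (log2 -1.09 ± 0.09, limma adjusted p = 5.43e-05), its FGF19 value was -0.24 (0.117), and the hormones differed by 0.85 ± 0.09 (0.000597). The constitutive oxygenase Hmox2 fell with both, by 0.39 (adjusted p = 0.0051) and by 0.27 (0.0305), the latter lost without any 1 vehicle or FGF19 array (0.0929 to 0.144).

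Bach1, the heme-sensing repressor of Hmox1, rose by 0.49 with FGF15 (limma adjusted p = 0.00611; 0.0609 without vehicle replicate 2) and 2.14-fold with FGF19 (log2 1.10, 3.87e-05). The hormones differed by 0.60 (adjusted p = 0.00373), and a second Bach1 probe set read 91.6 and 71.1 with FGF15 against 157 and 155 with FGF19. On that probe set the FGF19 value against vehicle was 0.82 but the FGF15 value was 0.08, far under the 0.49 of the first. The biliverdin reductase Blvra fell by 0.44 with FGF15 (adjusted p = 0.0369), and Blvrb rose by 0.36 with FGF19 (0.0322). Both calls were lost without any 1 array of the groups compared (limma adjusted p from 0.0549 to 0.161 for Blvra and 0.0627 to 0.184 for Blvrb), and that of Blvra also under the 3 other scalings (0.0582 to 0.118). The heme carrier hemopexin (Hpx) fell by 0.38 (adjusted p = 0.0496) and the haptoglobin-hemoglobin receptor Cd163 by 0.52 (0.00664) with FGF19. The Hpx call was lost without any 1 array except FGF19 replicate 2, and without FGF19 replicate 1 its value was -0.18. It was also lost with quantile normalization (-0.15, limma adjusted p = 0.0862) and with arrays centred on their medians (-0.23, 0.199). The Cd163 call was lost without vehicle replicate 2 (-0.48). Leaving out 1 array gave 2 to 5 falls with FGF15.

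Hmox1, Cd163 and the iron exporter Slc40a1 are abundant in Kupffer cells, the macrophages of liver, whose markers were measured too. By the test, Hmox1 fell with FGF15 alone, Cd163 with FGF19 alone and Slc40a1 with both. Of 11 measured markers, 10 fell with FGF15 (median -0.74, with 6.64% of all genes lower) and 9 with FGF19 (median -0.81, with 7.26% of all lower), and none of them was listed at 0. Their summed signal was 6427 to 6525 with vehicle, 3484 to 3608 with FGF15 and 3499 to 3534 with FGF19. Between the hormones (FGF19 minus FGF15), 5 of the 11 lay above 0 and 6 below, with a median of -0.08. The test called 2 of them higher with FGF19, where 2.40% of all genes were. They were Mpeg1 by 0.51 (limma adjusted p = 0.00301) and Marco by 1.01 (0.00423). By limma's unadjusted p under 0.05, 2 markers were higher with FGF19 and 3 were lower, among them C1qc, Clec4f and Vsig4. The Marco call was lost without FGF19 replicate 1, where its log2 value was 0.94. The part of Kupffer cells in these values was not tested.

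Iron handling genes had calls in both directions. Of 16 measured, 5 rose and 2 fell with FGF15 (43.8%, with 12.5% of all genes; median 0.03), and 4 rose and 1 fell with FGF19 (31.2%, with 13.5% of all; median -0.14). Leaving out 1 array gave 2 to 5 rises and 1 to 4 falls with FGF15, and 2 to 4 rises and at most 4 falls with FGF19. Ireb2, the iron regulatory protein IRP2, rose 1.60-fold with FGF15 (log2 0.68, limma adjusted p = 0.00017) and by 0.51 with FGF19 (0.000868). The transferrin receptor Tfrc rose by 0.50 (adjusted p = 0.00403) and 0.61 (0.00121), and Slc39a14, an importer of iron not bound to transferrin, by 0.32 (0.0212; 0.0727 to 0.140 without any 1 vehicle or FGF15 array) and 0.42 (0.00452; 0.0518 without vehicle replicate 1). Slc40a1, ferroportin, fell by 0.44 (adjusted p = 0.00168) and by 0.31 (0.0114). Its FGF19 call was lost without either vehicle array (limma adjusted p = 0.0865 and 0.0746), without FGF19 replicate 1 (0.0571) and with arrays centred (-0.16, 0.206). The Tfrc calls rest on its brightest probe set: the mean of its probe sets gave adjusted p-values of 0.204 and 0.0718.

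Heme-holding proteins of liver, the users of the pathway, changed in both directions. Of 30 measured, 7 rose and 4 fell with FGF15 (36.7%, with 12.5% of all genes), and 6 rose and 7 fell with FGF19 (43.3%, with 13.5% of all). Cyp7a1, the rate-limiting P450 of bile acid synthesis and the known target of these hormones, read 2677 and 2572 with vehicle, 91.5 and 89.4 with FGF15, and 38.2 and 32.1 with FGF19. On the scale of signal + 32 it fell 21.7-fold (log2 -4.44, limma adjusted p = 3.28e-09) and 39.6-fold (log2 -5.31, 5.7e-10). Its FGF19 signals lie near that constant, so the fold depends on it: adding 16 gave log2 values of -4.63 and -5.69, and adding 64 gave -4.12 and -4.76. The fatty acid hydroxylase Cyp4a14 rose by 1.97 and 1.92 on the log2 scale, and the retinoic acid hydroxylase Cyp26a1 by 2.18 and 0.92. The CAR target Cyp2b10, on a probe set that can bind related transcripts, rose by 1.32 and 1.00. Leaving out 1 array gave 5 to 10 rises and 4 to 7 falls with FGF15, and 3 to 4 rises and 4 to 10 falls with FGF19.

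Of the arrays, FGF19 replicate 1 stood apart in its control probe sets. Its 18S ribosomal RNA control read 32.3, where the other 5 read 4.25 to 5.82, and its actin 3′ to 5′ ratio was 1.63, where they gave 1.30 to 1.39. Alas1 without it gave -0.43 against vehicle (limma adjusted p = 0.00334), and the Cpox difference between hormones stayed within the range given above. Hepatocyte markers were bright on all arrays, with a summed signal of 81516 to 82960 with vehicle, 70951 to 76383 with FGF15 and 62608 to 78773 with FGF19, the lowest on that array. The median signal of an array was 59.4 to 61.4 with vehicle and 50.8 to 55.2 with the hormones, after scaling to one trimmed mean. Centring each array on its median raised the median change of all genes by 0.12 (FGF15) and 0.15 (FGF19), and turned the sign of the small FGF19 values of Cpox (0.09) and Fech (0.12).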

How the data were processed

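Analysis started from the deposited linear signal intensities. As the values show, the authors had scaled the deposited intensity of each array to a mean, trimmed by 2% at each end, of about 200 (200.09 to 200.1). Which software summarised the probes is not given in the sources used. Of 22690 probe sets, 64 were controls, and the platform annotation paired 20380 with 1 gene, 691 with several and 1555 with none. Only those with 1 gene were named, and the symbols of 20351 were taken by Entrez number.

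Signals were converted to log2(signal + 32), a scale that understates changes of dim genes. A gene was represented by its probe set of highest mean, and genes under the 25th percentile of all probe sets (a signal of about 14.0) were left out, which removed 2701. Differences were fitted in R 4.3.3 with limma 3.58.1, using lmFit and eBayes with a trend, and with group as the only term over all 6 arrays, leaving 3 residual and 6.82 prior degrees of freedom. A gene is said to rise or fall at a Benjamini-Hochberg adjusted p under 0.05 over all genes, two-sided, in each of 3 contrasts. The number of arrays, 2 per group, limits the precision: the median standard error was 0.13. The fit was tested on simulated data. Python 3.11.15 with matplotlib 3.10.9 drew the figures. Promoters came from a RefSeq table matched by symbol, without its windows on chr18.

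The members and lists were chosen with earlier results of these data known. Named were the 7 enzyme genes, Cyp7a1, up to 4 called genes of each list by smallest p against vehicle, and the 5 genes nearest to Alas1 by distance and by correlation. Further list members were named after their values were seen. Alternatives were other pseudocounts, quantile and cyclic loess normalization, centring, other filters, the mean of probe sets, other variance priors, array weights, only the arrays compared, the replicate block, leaving out each array and a threshold of 0.10.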

Additional observations from a re-analysis of the deposited data

Results flagged for a closer look

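The results listed here are genes whose change from vehicle differed between the hormones by the test of that difference. The test is FGF19 minus FGF15 in limma, adjusted over all genes, and each value is a log2 value. Only genes named by the rule given above are listed, so the list is not complete. Among the enzymes this was Cpox alone, at -0.66. Of heme breakdown genes, Hmox1 differed by 0.85 and Bach1 by 0.60. Of the regulators of Alas1 that were named by the rule, Ppargc1a differed by 1.29, Nr1h4 by -0.58, Cebpa by -0.87 and Nr1i3 by -0.40. Of 30 heme proteins measured, 6 were called lower with FGF19. Those named by the rule were Cyp7a1 at -0.87, Cyp26a1 at -1.26 and Cyp2b10 at -0.31. The lowest value of that list was -1.54, for Cyp2b9, which the rule did not name. Of marker genes, the hepatocyte gene Tat differed by 0.90, the Kupffer cell gene Mpeg1 by 0.51 and the endothelial gene Lyve1 by 0.40.

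The calls of Nr1i3 were lost without any 1 of the FGF15 or FGF19 arrays (limma adjusted p from 0.0602 to 0.134), and those of Lyve1 without any 1 of the 6 arrays. The difference of Cyp2b10 was lost without any 1 array except FGF19 replicate 1. It was also lost with arrays centred on their medians, with no filter, with the mean of probe sets and with only the arrays compared. Without a variance trend, the differences of Bach1 (limma adjusted p = 0.0643), Nr1h4 (0.0542) and Mpeg1 (0.0542) were lost. So were those of Nr1i3 (0.112), Cyp2b10 (0.203) and Lyve1 (0.142).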

How the results depend on the processing

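The 3 Alas1, Urod and Cpox calls with FGF15 became 2 or 3 enzyme genes when 1 array was left out. With FGF19 the 2 enzyme genes became 1 without a variance trend and from 1 to 4 when 1 array was left out. Between the hormones the 1 gene became 2 at a threshold of 0.10 and 1 or 2 when 1 array was left out. Of 396 values of single enzyme genes under an alternative, 372 kept their direction and side of the threshold, 5 lost the call, 8 gained it, and 11 uncalled values changed sign; no called value changed sign. Urod lost both calls without a variance trend (limma adjusted p = 0.0559 and 0.0565). Uros passed with FGF19 at a pseudocount of 64 (0.0498), with a filter at the 50th percentile (0.0397) and with array weights (0.0430).

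Over the genes tested, same-numbered arrays did not deviate together (correlations 0.08, -0.02 and 0.05 for the 3 pairs of groups). The labels do not say what the number stands for, and 2 arrays a group cannot settle whether it pairs arrays. With the replicate number as a block, the enzyme genes called were 3, 2 and 1, and Alas1 stood at -0.53 and -0.42 (limma adjusted p = 0.000541 and 0.0018).

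Over all genes, 569 rose and 644 fell with FGF15 and 608 and 704 with FGF19. Without a variance trend these were 243 and 394, and 298 and 435. Centring arrays on their medians gave 1006 and 357, and 1216 and 330. Leaving out 1 array gave 271 to 576 rises with FGF15 and 316 to 613 with FGF19. Dim probe sets such as those of Ppox limit what could be resolved.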

Other observations

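Markers of other liver cells were measured beside the enzyme genes. Of 8 hepatocyte markers, 1 fell with each hormone (12.5%, where 6.64% and 7.26% of all genes fell). By log2 change, 8 lay below 0 with FGF15 (median -0.13) and 7 with FGF19 (median -0.24). The medians over all genes were -0.05 and -0.07. Tat, an aminotransferase of tyrosine breakdown, fell with FGF15 (log2 -0.73, limma adjusted p = 0.0004). Hpd of the same pathway fell with FGF19 (-0.31, limma adjusted p = 0.0384). The Hpd call was lost without any 1 array except FGF19 replicate 2 (limma adjusted p from 0.0633 to 0.207) and with arrays centred on their medians (0.299). Of 10 stellate cell markers, 4 fell with FGF15 (Col3a1 at -1.02, Rgs5 at -0.54, Col1a2 at -0.55 and Col1a1 at -1.04, where 6.64% of all genes fell) and 3 fell with FGF19 (7.26% of all); leaving out 1 array gave 2 to 5 and 1 to 3. Of 10 endothelial markers, Lyve1 alone fell with FGF15 (-0.61, limma adjusted p = 0.0017), which is 10% where 6.64% of all genes fell. Its other probe set gave -0.25, and the median of the list was -0.04.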
